A study of Mus musculus with 13 samples.

Results

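The genes described here encode the subunits of the mitochondrial respiratory chain, grouped by complex. They are the rows of the fat table and of the tumour table whose symbol begins with Nduf, Uqcr, Cox4, Cox5, Cox6, Cox7, Cox8 or Atp5, together with Sdha, Sdhb, Sdhc and Sdhd, and without Cox8b and Cox7a1. The rule itself uses symbols and no measured value. The rule found 88 of the 22609 genes of each table, the same 88 in both. Of these, 81 encode subunits: 38 of complex I, 4 of complex II, 8 of complex III, 16 of complex IV and 15 of complex V. The other 7 carry a matching prefix without being subunits (Ndufaf1 to Ndufaf4, Cox4nb, Atp5s and Atp5sl) and are described apart.

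Complex I oxidises NADH, complex II oxidises succinate and belongs to the citric acid cycle as well, complex III passes the electrons to cytochrome c, and complex IV hands them to oxygen. Complexes I, III and IV pump protons, and complex V, the ATP synthase, lets the protons flow back and makes ATP. In white fat cells the chain provides ATP for lipid synthesis, and obesity is known to lower its content there.

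The mice were C57BL/6 and were either KO, with PD-L1 deleted in fat according to the series title, or WT. Visceral fat, from mice given HFD, gave 4 KO and 3 WT libraries. E0771 tumours, a transplanted mouse mammary cancer, came from 3 KO and 3 WT hosts, so KO names the host and not the cancer cells. The labels do not name what drives the deletion, and they do not say that each library came from its own animal, so each p-value reflects only how far these libraries spread.

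Fat libraries held 29362788 to 41534662 gene reads and tumour libraries 22834259 to 34706555. Cd274, which encodes PD-L1, lay at normalised values of 521.1 to 563.8 in KO fat and 504.1 to 738.6 in WT fat, so KO stands for libraries labelled KO. The 10 adipocyte markers summed to 285740 to 442570 in KO fat and 906950 to 954040 in WT fat, and the 9 macrophage markers in the table to 234830 to 343830 in KO fat and 44870 to 131370 in WT fat. All 10 adipocyte markers fell and all 9 macrophage markers rose. In bulk tissue, fewer cells of a type and less RNA per cell cannot be told apart. The 6 sperm genes Prm1, Prm2, Tnp1, Tnp2, Ldhc and Pgk2 summed to 0 to 4.54 in KO fat and 45.4 to 675.3 in WT fat. Adam7, an epididymis gene, reached 1918 in WT column 4 and at most 2.02 in the other fat libraries.

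In visceral fat, the median subunit of each of the 5 complexes was lower in KO than in WT. Of the 78 subunit genes that passed the filter on low values, 73 (93.6%) had a log2 fold change below 0, against 50.03% of all 14455 genes tested. The sizes were modest. The median log2 fold change over the 78 subunits was -0.42, against -0.00 over all genes tested. Fold changes in fat are on the log2(value + 1) scale, which understates the change of low genes. By complex the median was -0.46 for complex I, -0.33 for complex II, -0.53 for complex III, -0.32 for complex IV and -0.35 for complex V.

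At an adjusted p under 0.05 in limma, 20 of the 78 subunits fell (25.6%), where 17.4% of all genes tested fell. Only 2 subunits rose, Cox7a2l and Cox6a2, where 16.8% of all genes tested rose. The subunits that fell were 12 of 37 in complex I, 1 of 4 in complex II, 3 of 8 in complex III, 2 of 14 in complex IV and 2 of 15 in complex V. Without adjustment, 37 of the 78 had p under 0.05 in limma and were lower, and 2 were higher. Among all 14455 genes tested, 3338 were lower and 3230 higher by the same measure. All 4 KO libraries lay below all 3 WT libraries for 20 of the 78 subunits (25.6%), close to the 22.1% of all genes tested, and above them for 2, where 21.6% of all genes did so. The 3 subunits not tested were Ndufs5, Cox7b2 and Cox8c.

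**Figure D1:**
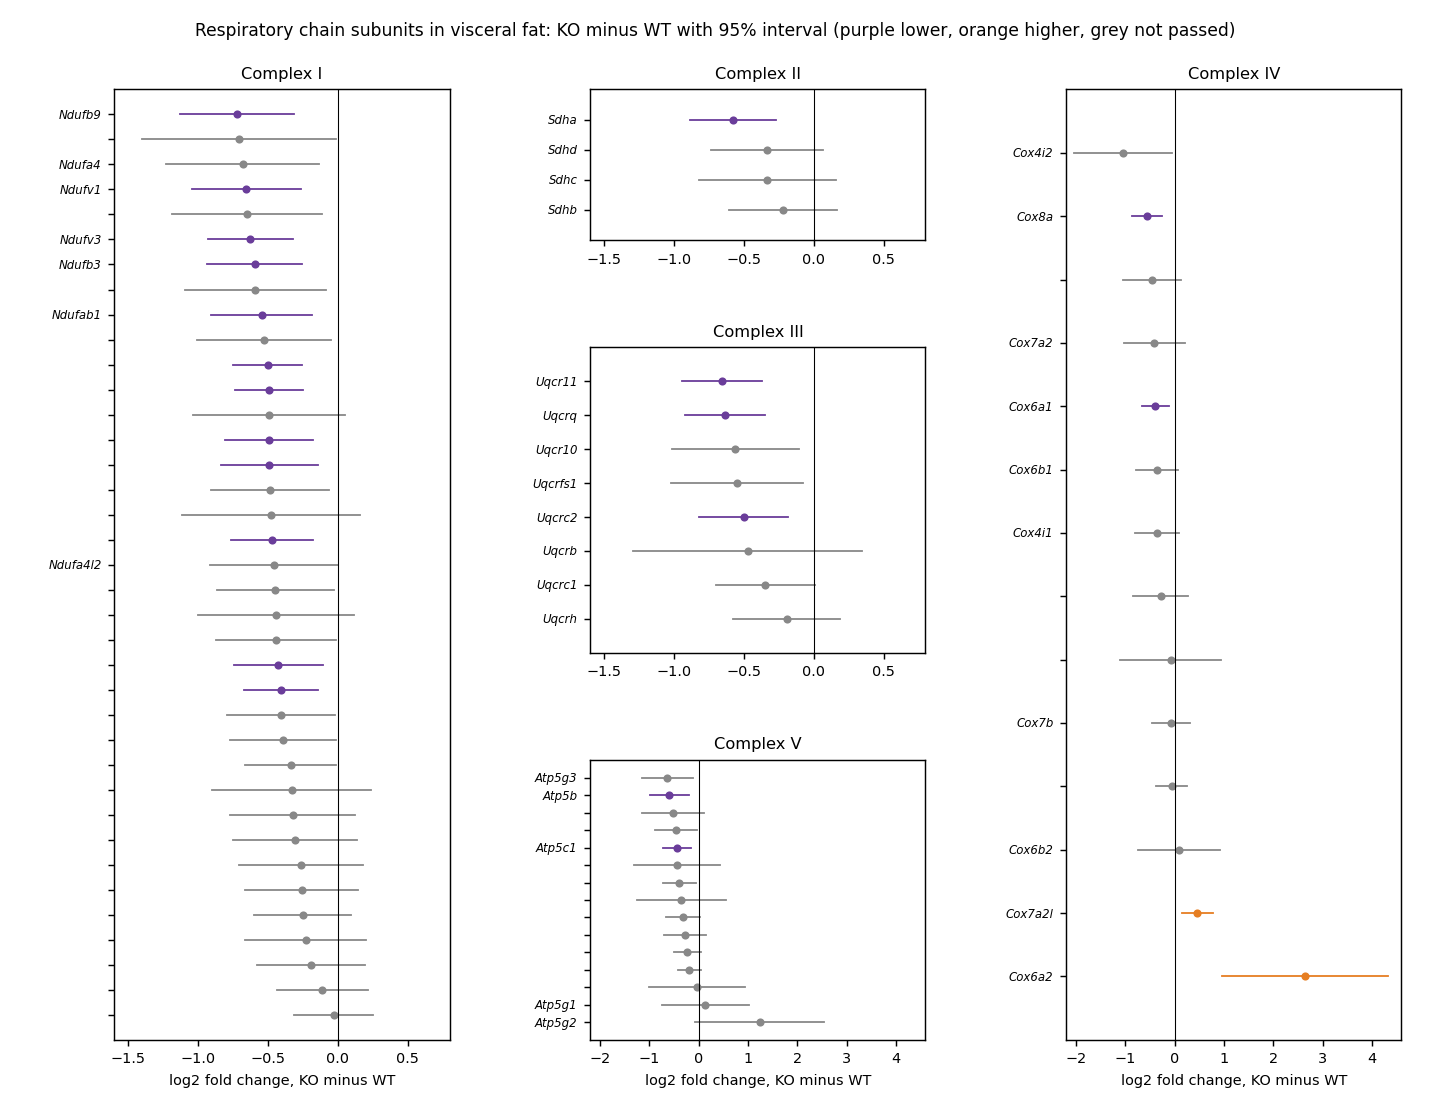
Log2 fold change of each tested subunit in visceral fat, KO minus WT, with its 95% confidence interval on the horizontal axis and 1 gene per line on the vertical axis (gene names are given for the genes chosen by the naming rule), 1 panel per complex (the axes of complexes IV and V are wider). Purple points passed as lower (20 genes), orange as higher (Cox7a2l and Cox6a2), grey did not pass, and 73 of 78 points lie left of 0.

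The counts depended on which libraries were in the fit. Without KO replicate 1, 54 members fell (52 of them subunits) and 0 rose, at a background of 17.8% of all genes lower. Without KO replicate 2, KO replicate 4, WT column 3 or WT column 4 the members that fell numbered 10, 10, 8 and 11, against 21 with all libraries (20 subunits and Ndufaf1). These are 11.8%, 11.9%, 9.41% and 13.1% of the members tested, where 12.4%, 13.3%, 10.4% and 14.1% of all genes tested fell, so in each of these 4 fits the members' share was slightly below that of all genes. Without KO replicate 3, 15 members fell (18.1%, against 16.3% of all genes), and without WT column 1, 30 fell (35.3%, against 17.4% of all genes). The subunit median stayed below 0 in all 7 of these fits, from -0.52 to -0.33.

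KO replicate 1 stood apart from the other KO libraries in these genes. It was the highest of the 4 KO libraries for 70 of the 78 subunits (89.7%), against 34.5% of all genes tested, and KO replicate 4 was the lowest for 44. Among WT libraries, WT column 1 was the lowest for 65 of 78 (83.3%), against 35.9% of all genes. Expressed as the median difference from the WT mean over the subunits tested, KO replicates 1 to 4 stood at 0.01, -0.42, -0.53 and -0.61 on the log2 scale, and WT columns 1, 3 and 4 at -0.20, 0.07 and 0.16. KO replicates 2 to 4 thus lay below every WT library, and KO replicate 1 lay inside the WT range. Over all genes tested the 7 libraries lay between -0.03 and 0.02.

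**Figure D2:**
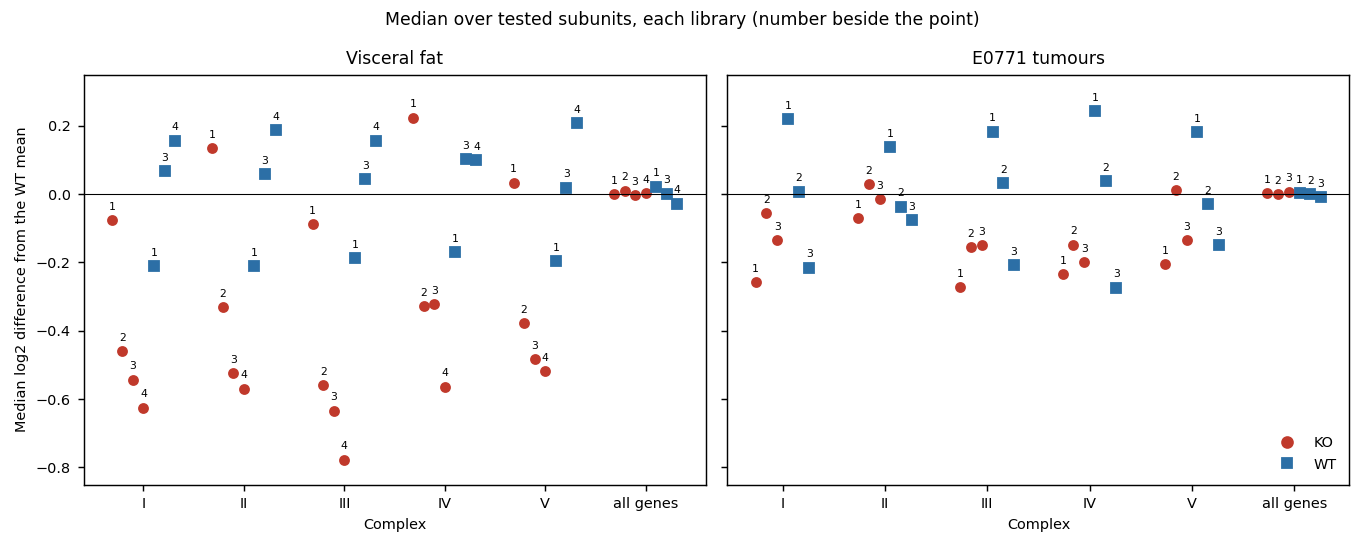
Median log2 difference from the WT mean over the tested subunits of each complex and over all genes tested, for each library (circles KO, squares WT, numbers are the library numbers), in visceral fat (left panel) and in tumours (right panel). In fat, KO libraries 2 to 4 lie between -0.32 and -0.78 in all 5 complexes while KO library 1 lies between -0.09 and 0.22, and in tumours all KO libraries lie within the WT range in complexes II and IV while KO library 1 lies below it in complexes I, III and V.

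Respiratory chain transcripts are short, and library differences tracked transcript length. The 78 subunits had a median length of 731.5 bases, and 69.2% were of at most 1000 bases, against a median of 2790 bases and 6.95% of the 13864 tested genes with a known length. Across all those genes the difference of KO replicate 1 from the mean of the other 3 KO libraries had a Spearman rho of -0.55 with length, a description over genes of the same libraries. Its median ran from 0.47 in 186 genes of up to 600 bases to -0.30 in 3840 genes over 4000 bases. In the subunits it was 0.63 in the 25 of up to 600 bases and 0.51 in the 29 longer ones of up to 1000 bases.

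**Figure D3:**
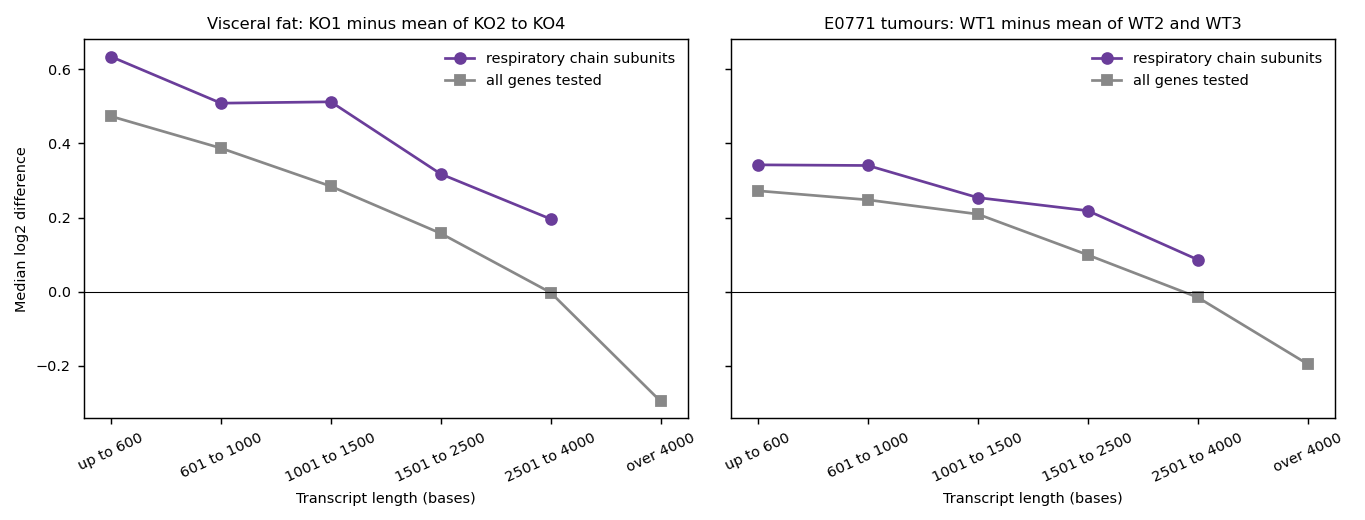
Median log2 difference of 1 library from the others of its group by class of transcript length, for respiratory chain subunits (circles) and all genes tested (squares). The left panel shows KO replicate 1 against the other KO fat libraries and the right panel WT replicate 1 against the other WT tumours, and both fall with length, from 0.47 to -0.30 over all genes in fat and from 0.27 to -0.20 in tumours. The 3 longest subunit classes hold 10, 10 and 4 genes.

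The fold change itself tracked length little in fat (rho -0.05 over 13864 genes, -0.03 over the 78 subunits). With each library adjusted by the median deviation of 20 length classes, a setting chosen after seeing the data, 39 members fell and 2 rose, at a background of 20% of all genes lower. The subunits that fell were then 24 of 37 in complex I, 1 of 4 in complex II, 6 of 8 in complex III, 2 of 14 in complex IV and 5 of 15 in complex V. The median over the subunits was -0.40. What sets KO replicate 1 apart was not tested.

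Complex I had the largest number of falls. Ndufb9, an accessory subunit of the membrane arm (chromosome 15, 58933801 to 58939516 on GRCm38.p6), had normalised values of 2834, 1943, 2255 and 1984 in KO replicates 1 to 4, against 3033, 3661 and 4473 in WT columns 1, 3 and 4. All KO values lay below all WT values. It fell by 0.72 on the log2 scale (SE 0.18, adjusted p = 0.0151 in limma), which is 39.4% lower in KO (95% confidence interval of the fold 0.458 to 0.803). The call ended without WT column 3 (adjusted p = 0.053).

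Ndufv1, the core subunit that binds NADH and flavin (chromosome 19, 4007499 to 4012755), stood at 3993, 3092, 2986 and 2668 in KO fat, against 4195, 4892 and 5948 in WT fat. Ndufv3, an accessory subunit beside it (chromosome 17, 31520115 to 31531326), stood at 2499, 2040, 2487 and 2111 in KO fat, against 3244, 3269 and 4102 in WT fat. Neither gene's groups overlapped. Ndufv1 fell by 0.66 on the log2 scale (SE 0.17, adjusted p = 0.0192 in limma) and Ndufv3 by 0.63 (SE 0.13, adjusted p = 0.00825). The call of Ndufv3 held in all 7 fits without 1 library (adjusted p up to 0.0281), whereas that of Ndufv1 ended in 4 of them (adjusted p up to 0.062).

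Ndufb3, another membrane arm subunit, averaged 1418 ± 263 in KO and 2121 ± 111 in WT fat (SD, n = 4 and n = 3; log2 fold change -0.60, SE 0.15, adjusted p = 0.0159 in limma). Ndufab1, which doubles as the mitochondrial acyl carrier protein, averaged 114.4 ± 7.19 in KO and 167.3 ± 6.08 in WT fat (log2 fold change -0.55, SE 0.16, adjusted p = 0.0293). The calls of Ndufb3 and Ndufab1 ended in 1 and 5 of the 7 fits without 1 library, and that of Ndufab1 also ended without the filter on low values. The other 7 that fell had log2 fold changes of -0.50 to -0.41 and included the core subunits Ndufs1 and Ndufs3 and the accessory subunits Ndufa10, Ndufa12, Ndufb7 and Ndufb10. Of these, Ndufa10 and Ndufb10 kept their calls in all 7 fits without 1 library, Ndufs1 and Ndufs3 lost them in 4, and Ndufa12 and Ndufb7 lost them in 5. The 25 subunits of complex I that did not pass had log2 fold changes of -0.71 to -0.03, all below 0.

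Complex II was the smallest group. Sdha, the flavoprotein that oxidises succinate (chromosome 13, 74322255 to 74350240), stood at 11667, 10211, 11765 and 10469 in KO fat, against 15502, 15255 and 18845 in WT fat. Its groups did not overlap, and KO replicate 1 lay among the other KO libraries. Sdha fell by 0.58 on the log2 scale (SE 0.13, adjusted p = 0.0119 in limma), 33.1% lower in KO, and the call held in all 7 fits without 1 library. The iron-sulfur subunit Sdhb averaged 3152 ± 613 in KO and 3647 ± 541 in WT fat, with a 95% confidence interval of the fold of 0.658 to 1.124. The membrane anchors Sdhc and Sdhd had log2 fold changes of -0.33 (SE 0.21) and -0.33 (SE 0.17), with adjusted p of 0.257 and 0.17 in limma. In KO replicate 1 the 3 genes stood at 4061 (Sdhb), 5015 (Sdhc) and 5452 (Sdhd), inside their WT ranges.

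In complex III, Uqcr11 and Uqcrq had the smallest adjusted p of all members. Uqcr11, a small subunit (chromosome 10, 80402997 to 80406821), stood at 1665, 1395, 1605 and 1371 in KO fat, against 2123, 2368 and 2654 in WT fat. Uqcrq, a small subunit named for ubiquinone binding (chromosome 11, 53427922 to 53430831), stood at 2186, 2067, 1891 and 1812 in KO fat, against 2655, 3384 and 3245 in WT fat. All KO libraries lay below all WT libraries for both genes, KO replicate 1 included.

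Uqcr11 fell by 0.66 on the log2 scale (SE 0.12, adjusted p = 0.00527 in limma) and Uqcrq by 0.63 (SE 0.13, adjusted p = 0.00622). Both calls held in all 7 fits without 1 library. The core subunit Uqcrc2 averaged 4786 ± 685 in KO and 6752 ± 655 in WT fat (log2 fold change -0.50, SE 0.14, adjusted p = 0.024) and lost its call in 5 of the 7. The other core subunit Uqcrc1 (log2 fold change -0.35, adjusted p = 0.115), the Rieske iron-sulfur protein Uqcrfs1 (-0.55, 0.0695), the small subunit Uqcr10 (-0.56, 0.059), the small subunit Uqcrb (-0.47, 0.333) and the hinge protein Uqcrh (-0.19, 0.396) did not pass. Without KO replicate 1, 7 of the 8 fell.

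**Figure D4:**
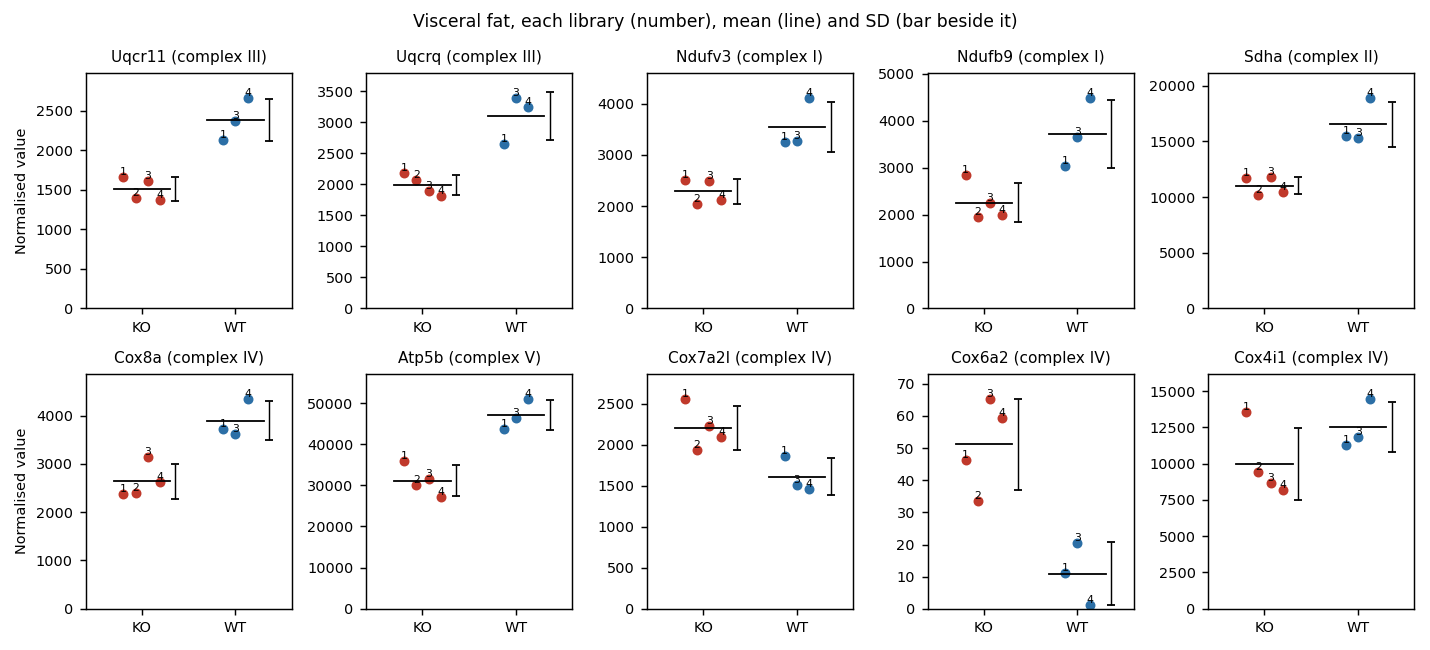
Normalised value in each visceral fat library (points, with library numbers), the group mean (line) and its SD (bar), for 10 subunit genes, KO left of WT. The KO and WT points do not overlap for any of the 9 called genes shown, and for Cox4i1 KO library 1 at 13581 lies inside the WT range of 11308 to 14479.

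Complex IV was mixed, with 2 genes lower and 2 higher. Cox8a, a small subunit in the form found outside striated muscle (chromosome 19, 7215158 to 7217616), stood at 2377, 2398, 3152 and 2615 in KO fat, against 3722, 3615 and 4347 in WT fat. Its groups did not overlap and KO replicate 1 was the lowest. Cox8a fell by 0.57 on the log2 scale (SE 0.13, adjusted p = 0.0128 in limma), a call that held in all 7 fits without 1 library and ended with the length classes (adjusted p = 0.0726). Cox6a1, the form of subunit 6A used outside striated muscle, averaged 3550 ± 397 in KO and 4650 ± 295 in WT fat (log2 fold change -0.39, SE 0.12, adjusted p = 0.0348) and lost its call in 4 of the 7.

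Cox7a2l is a relative of the subunit 7A genes (chromosome 17, 83501917 to 83514333). It has been studied for a part in joining complexes III and IV into supercomplexes, which were not measured here. Its values were 2559, 1929, 2225 and 2093 in KO fat, against 1864, 1504 and 1457 in WT fat. It rose by 0.45 on the log2 scale (SE 0.14, adjusted p = 0.0342 in limma). The lowest KO value, 1929, was close to the highest WT value, 1864, and the call ended in 5 of the 7 fits without 1 library (adjusted p up to 0.126). Cox7a2, the ordinary subunit 7A of this tissue, averaged 2357 ± 893 in KO and 3044 ± 641 in WT fat (log2 fold change -0.41, SE 0.27, adjusted p = 0.267). Per length, Cox7a2l made up 30.1%, 34.1%, 43.2% and 42.8% of the pair in KO replicates 1 to 4, against 33.1%, 21.2% and 20.7% in WT columns 1, 3 and 4, so the groups overlapped in this share.

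Cox6a2, the heart and skeletal muscle form of subunit 6A (chromosome 7, 128205435 to 128206366), had normalised values of 46.4, 33.4, 65.4 and 59.5 in KO fat, against 11.2, 20.5 and 1.03 in WT fat. It rose by 2.64 on the log2 scale (SE 0.74, adjusted p = 0.0249 in limma), but the last WT value is 1 read, and without WT column 4 the log2 fold change was 1.64 (adjusted p = 0.0178). The call ended without KO replicate 1, 3 or 4 (adjusted p up to 0.0606). Per length it made up 0.859% to 1.54% of the pair with Cox6a1 in KO and 0.0174% to 0.374% in WT fat. Of 3 tested skeletal muscle markers 1 fell (Acta1) and 0 rose, and Ckm averaged 2.36 in KO and 0.996 in WT fat. The gene shares 3.33% of its sequence windows with Itgad, an integrin gene whose values were 1306 to 2068 in KO and 104.1 to 345 in WT fat, a rise of 3.27 on the log2 scale (SE 0.38, adjusted p = 0.0011 in limma). The part of Itgad reads in the values of Cox6a2 was not tested.

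Cox4i1, the main form of subunit 4, stood at 13581, 9457, 8646 and 8155 in KO fat, against 11308, 11828 and 14479 in WT fat (log2 fold change -0.35, SE 0.20, adjusted p = 0.193 in limma). KO replicate 1 lay inside the WT range and the other 3 lay below it. Its hypoxia-induced relative Cox4i2 stood at 108.2, 31.3, 85.3 and 59.5 in KO fat, against 117, 205.4 and 101 in WT fat (log2 fold change -1.05, SE 0.44, adjusted p = 0.0956), with KO replicate 1 inside the WT range. Of the 5 pericyte markers 3 fell, and the summed values of the 5 were 9892 to 16617 in KO and 17305 to 21407 in WT fat. Their part in the Cox4i2 values was not tested.

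The remaining paralogues did not pass or were too low to test. Cox6b1 averaged 4970.2 ± 1226 in KO and 6252 ± 716 in WT fat (adjusted p = 0.173 in limma), and its testis form Cox6b2 averaged 43.0 ± 12.3 in KO and 41.7 ± 16.5 in WT fat. Cox7b averaged 2210 ± 496 in KO and 2292 ± 153 in WT fat. The testis forms Cox7b2 and Cox8c were at 0 in all 4 KO libraries and at most 1.72 and 4.89 in WT libraries, which also held sperm genes. Ndufa4, a subunit of complex IV that is counted above with complex I by its name, averaged 3546 ± 1101 in KO and 5600.2 ± 1179.7 in WT fat (log2 fold change -0.68, SE 0.24, adjusted p = 0.0576), and it passed without KO replicate 1 (adjusted p = 0.0127). Its relative Ndufa4l2, induced by hypoxia, averaged 354.9 ± 68.3 in KO and 485.1 ± 88.0 in WT fat (adjusted p = 0.112).

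Complex V holds the most abundant transcript of the set, though not the highest median level. The median per 1000 bases in WT fat was 3525 in complex V, against 3664 in complex II and 3763 in complex III. Atp5b, the catalytic beta subunit (chromosome 10, 128083307 to 128090388), was first in level per length, at 16267 per 1000 bases in KO and 24567 in WT fat, ahead of Cox4i1 at 13369 in KO and 16830 in WT fat and of the alpha subunit Atp5a1 at 9553 in KO and 12496 in WT fat. Its normalised values were 36015, 30093, 31511 and 27054 in KO fat, against 43766, 46389 and 51056 in WT fat, with no overlap. Atp5b fell by 0.60 on the log2 scale (SE 0.17, adjusted p = 0.0271 in limma), and the call ended in 4 of the 7 fits without 1 library and without the filter on low values. The gamma subunit Atp5c1, the rotating stalk, averaged 5274 ± 600 in KO and 7174 ± 478 in WT fat (log2 fold change -0.45, SE 0.12, adjusted p = 0.0234) and lost its call in 5 of the 7.

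Of the 13 other subunits of complex V tested, Atp5g3, which encodes the proton-carrying c ring, averaged 4769 ± 1364 in KO and 7339 ± 1472 in WT fat (log2 fold change -0.64, SE 0.23, adjusted p = 0.0578 in limma). Atp5g1 and Atp5g2 encode the same mature protein and were counted at 38.9 ± 19.4 and 13.3 ± 4.93 in KO and at 32.8 ± 4.96 and 5.62 ± 3.79 in WT fat. Atp5a1 (log2 fold change -0.39, SE 0.15, adjusted p = 0.0701) did not pass although its KO values lay below its WT values. The 13 had log2 fold changes of -0.64 (Atp5g3) to 1.24 (Atp5g2).

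The 7 genes with a matching prefix that are no subunits had a median log2 fold change of -0.24. Ndufaf1, a chaperone of complex I assembly, stood at 554.1, 484.4, 491.2 and 451.5 in KO fat, against 673.6, 751.3 and 786.7 in WT fat. It fell by 0.57 on the log2 scale (SE 0.13, adjusted p = 0.00925 in limma), with no overlap, and held in all 7 fits without 1 library. The other 6 did not pass, with log2 fold changes of -0.46 (Ndufaf3) to 0.19 (Atp5sl).

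Some promoters of subunit genes hold known motifs, and those of called genes that hold them are shown to let the letters be compared. RefSeq windows of GRCm38.p6, from 250 bases before to 50 after the start, were found for 72 of the 88 members (66 subunits), taking the first window by position where there were several. They were searched on both strands for GCATGCGC (part of the NRF1 site), CCGGAAG (the core of the ETS or GABP site) and AAGATGGCG (part of the YY1 site). The motif GCATGCGC was in 15.2% of the 66 subunit windows, against 5% of 10205 windows of genes tested in fat and 2.78% of all 27025. The motif CCGGAAG was in 24.2% of subunit windows, against 16.2% and 9.08%, and AAGATGGCG in 10.6%, against 2.83% and 1.49%. At least 1 of the 3 motifs was in 27 of the 66 subunit windows (40.9%), against 22.2% and 12.5%.

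Among called subunits with a window, 5 of 16 held a motif between 120 bases before and 30 after the start. Those stretches are printed 5′ to 3′ with the motif letters in capitals, on GRCm38.p6: Uqcr11 at chr10:80406792-80406941 (minus strand), Ndufs3 at chr2:90904692-90904841 (minus strand), Cox6a1 at chr5:115348929-115349078 (minus strand), Cox8a at chr19:7217587-7217736 (minus strand) and Ndufb7 at chr8:83566638-83566787 (plus strand). Cox7a2l, which rose, is given beside them at chr17:83514304-83514453 (minus strand) and holds none of the motifs. A motif on the minus strand reads as its reverse complement in the printed strand.
Uqcr11: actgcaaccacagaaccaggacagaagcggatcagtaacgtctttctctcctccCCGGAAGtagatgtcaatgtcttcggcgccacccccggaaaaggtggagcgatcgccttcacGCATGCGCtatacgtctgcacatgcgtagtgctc
Ndufs3: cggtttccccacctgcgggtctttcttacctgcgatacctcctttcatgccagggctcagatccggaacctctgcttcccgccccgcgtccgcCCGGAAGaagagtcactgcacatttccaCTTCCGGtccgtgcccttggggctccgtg
Cox6a1: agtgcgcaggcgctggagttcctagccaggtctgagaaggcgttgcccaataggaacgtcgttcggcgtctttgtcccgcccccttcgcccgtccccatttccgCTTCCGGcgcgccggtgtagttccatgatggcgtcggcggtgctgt
Cox8a: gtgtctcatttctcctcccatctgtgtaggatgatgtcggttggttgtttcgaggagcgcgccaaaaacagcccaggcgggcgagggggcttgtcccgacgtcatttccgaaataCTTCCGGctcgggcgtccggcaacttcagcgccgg
Ndufb7: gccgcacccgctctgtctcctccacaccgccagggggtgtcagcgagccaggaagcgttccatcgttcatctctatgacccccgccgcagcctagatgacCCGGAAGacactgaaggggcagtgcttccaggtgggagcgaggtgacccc
Cox7a2l: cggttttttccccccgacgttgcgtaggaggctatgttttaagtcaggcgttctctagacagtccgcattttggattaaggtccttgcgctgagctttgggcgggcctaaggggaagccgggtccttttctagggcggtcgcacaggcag

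In the Uqcr11 stretch CCGGAAG begins 66 bases and GCATGCGC 4 bases before the start. In the Ndufs3 stretch CCGGAAG lies once on each strand, in Cox6a1 and Cox8a on the minus strand and in Ndufb7 on the plus strand. Windows of the 15 subunits that fell held at least 1 motif in 33.3% of cases, against 45.8% of the 48 that did not pass and 22.2% of the genes tested in fat. A match is a description of letters and not a bound site.

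The citric acid cycle and the cristae genes had the highest shares of falls among the other mitochondrial lists in KO fat (92.9% and 75%), where 17.4% of all genes tested fell. Of 14 tested enzymes of the citric acid cycle, which feeds complexes I and II, 13 fell and 0 rose (median log2 fold change -0.56), among them Idh3a at -0.85 (SE 0.13, adjusted p = 0.00218 in limma) and fumarase Fh1 at -0.76 (SE 0.16, adjusted p = 0.00865). Of 15 tested electron carrier genes, which supply coenzyme Q and the electron transfer flavoprotein, 7 fell (46.7%, median -0.38), led by Etfa at -0.83 and Coq9 at -0.74. Of 8 supercomplex and cristae genes 6 fell (median -0.44), led by Chchd6 at -1.06 and Higd1a at -0.89.

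Among assembly factors, 4 of 7 for complex I fell (57.1%, median -0.54), with Ecsit at -0.79 and Acad9 at -0.73. For complex II 0 of 2 passed, for complex III 0 of 3, and for complex IV 1 of 12 (8.33%), Cox19 at -0.52. Of 5 for complex V, Atpaf2 fell by 0.88 on the log2 scale and Tmem70 by 0.55, while Atpif1, the inhibitor of the ATP synthase, rose by 1.33 (SE 0.21, adjusted p = 0.00268 in limma), averaging 2855 ± 648 in KO and 1135 ± 252 in WT fat. Of 74 tested mitochondrial ribosome genes 15 fell (20.3%, close to the 17.4% of all genes) and 1 rose, Mrpl19 at 0.50. Their median was -0.22. Of the 74, 67 had a log2 fold change below 0, beside 73 of the 78 subunits and 50.03% of all genes tested. No gene symbol in the fat or tumour data began with mt-, the prefix of genes of the mitochondrial genome. The subunits encoded there are therefore not covered by the complexes described above.

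Of 14 biogenesis regulators 1 fell, Ppara, the nuclear receptor of fat oxidation (log2 fold change -1.24, SE 0.26, adjusted p = 0.00803 in limma), and the median was 0.02. The coactivator Ppargc1a averaged 91.95 ± 22.7 in KO and 192.2 ± 127 in WT fat (adjusted p = 0.115). Nrf1 had a log2 fold change of 0.30 (adjusted p = 0.0764), Esrra of 0.16 (0.271) and the mitochondrial DNA factor Tfam of -0.04 (0.862). The subunit median of -0.42 stood beside a median of -1.61 for the 10 adipocyte markers and of 1.85 for the 9 macrophage markers. All 5 endothelial markers fell (median -0.85), as did 4 of 5 mesothelial markers (median -0.89). Of 6 T cell markers 2 rose, of 4 fibroblast markers 1 rose, and of 7 brown or beige fat markers 2 rose. The part of cell make-up in the subunit values was not tested.

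Shared sequence limits the levels of some members. Windows of 50 bases of each transcript were searched in the transcripts of all other genes. Of the 81 subunits, 10 had at least 30% of their windows in a pseudogene: Atp5g2 (87.4%), Atp5l (68.5%), Atp5g1 (66%), Ndufa12 (53.8%), Cox7c (53.0%), Atp5h (50.5%), Uqcrb (43.2%), Ndufs5 (41.2%), Ndufb4 (37%) and Ndufs3 (35.8%). Their median level per 1000 bases was 98.9 in KO and 132 in WT fat, against 2524 in KO and 3161 in WT fat for the other 71. Some of the 71 share windows as well. Counting other genes of any kind, the share was 50.3% in Atp5o, 38.7% in Atp5f1 and 34.1% in Ndufb6. In the called genes Uqcrc2 and Ndufb9 it was 24.8% and 23.4%. Ndufs5 was at 0 in all 13 libraries, while BC002163, annotated as a pseudogene sharing its windows, had 265.4 to 434.9 in KO and 369.8 to 507.6 in WT fat. Levels and fold changes of these 10 genes are therefore uncertain, 2 called genes (Ndufa12 and Ndufs3) among them. The share also depends on the transcript chosen. The called gene Ndufab1 was scored on 3479 bases, with 421 windows in other genes and 12.3% in a pseudogene, so the cut at 30% leaves it out. Its level per 1000 bases was as low, at 32.9 in KO and 48.1 in WT fat. Atp5g2 and Cox7c, with means of at most 25.3 in KO and 27.4 in WT fat, had log2 fold changes of 1.24 (SE 0.57) and -0.08 (SE 0.45), neither of which passed.

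**Figure D5:**
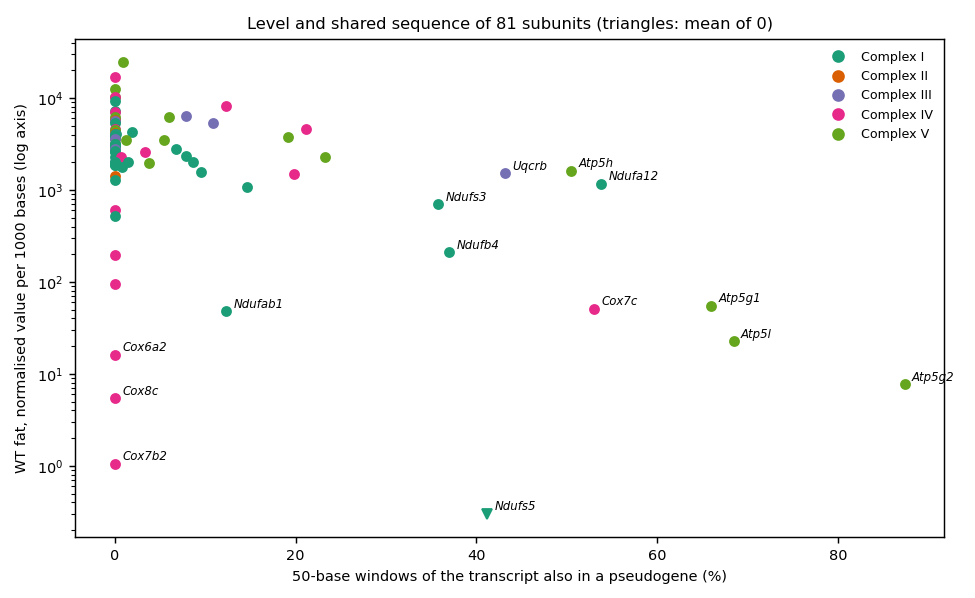
Share of the 50-base windows of each subunit transcript that also occur in a pseudogene (horizontal axis, percent) against its mean normalised value per 1000 bases in WT fat (vertical axis, log scale), coloured by complex. The 10 genes at 30% or more lie at or below 1609, and Ndufs5, at 0, is drawn as a triangle at the bottom.

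In the E0771 tumours no member passed in either direction among the 83 tested with edgeR (Ndufs5, Cox7b2, Cox8c, Atp5l and Cox6b2 did not pass the filter on low counts), and neither did any of the 13109 genes tested (0% higher and 0% lower). Without adjustment, 8 members with p under 0.05 were lower and 0 higher, against 408 lower and 497 higher among all genes. DESeq2 called 47 genes higher and 12 lower, with 0 members among them. Averages again lay mostly below those of WT hosts: 63 of 76 tested subunits had a log2 fold change below 0 (82.9%), against 49.1% of all genes. The medians were -0.16 for complex I, -0.04 for complex II, -0.19 for complex III, -0.19 for complex IV and -0.12 for complex V, against 0.00 over all genes. All KO values lay below all WT values for 4 of the 76 subunits, where 4.93% of all genes tested did so, and above them for 0, where 5.68% did.

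Tumour libraries of the same group differed in these genes too. Median differences of the subunits from the WT mean were -0.23, -0.07 and -0.15 in KO replicates 1 to 3, against 0.21, 0.01 and -0.21 in WT replicates 1 to 3. WT replicate 1 was the highest WT library for 67 of 76 subunits and WT replicate 3 the lowest for 67. The log2 fold changes of all 12565 tumour genes with a known length had a rho of 0.22 with length, and their medians ran from -0.16 in 171 genes of up to 600 bases to 0.06 in 3388 genes over 4000 bases. With the length classes the subunit median was -0.04, with 48 of 76 below 0, and without WT replicate 1 it was -0.05. The part of length in the tumour differences beyond these values was not tested.

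The member of smallest p in the tumours was again in complex III. Uqcrq stood at 118.9, 127.2 and 125.4 CPM (TMM-scaled counts) in KO hosts, against 178.2, 162 and 137.2 in WT hosts, without overlap. Its log2 fold change was -0.36 (SE 0.12, adjusted p = 0.646 in edgeR). Uqcr10 averaged 93.5 ± 1.57 CPM in KO and 117.8 ± 18.3 CPM in WT hosts (log2 fold change -0.33, adjusted p = 0.676). The other 6 members of complex III had log2 fold changes of -0.23 (Uqcrfs1) to -0.00 (Uqcrb), and Uqcr11, which fell in fat, had -0.21 (SE 0.14, adjusted p = 0.809).

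In complex II the 4 log2 fold changes ran from -0.08 (Sdhd) to 0.01 (Sdha). Sdha averaged 249.4 ± 14.4 in KO and 247.6 ± 8.37 in WT hosts, and Sdhd averaged 202.9 ± 20.8 in KO and 214.6 ± 24.6 in WT hosts. The complex I genes of smallest p were Ndufb2 (log2 fold change -0.36), Ndufa7 (-0.33) and Ndufa6 (-0.34), with adjusted p of 0.712 to 0.73 in edgeR. In complex IV they were Cox8a (-0.39), Cox4i1 (-0.28) and Cox6a1 (-0.29), with adjusted p of 0.712 to 0.756. In complex V they were Atp5e (-0.37), Atp5d (-0.29) and Atp5j (-0.24), with adjusted p of 0.676 to 0.757. For Cox8a the values were 98.1, 67.7 and 100.2 in KO hosts, against 136.8, 116.5 and 96.6 in WT hosts, which overlap.

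Cox7a2l, which rose in fat, averaged 93.2 ± 3.83 in KO and 109.5 ± 24.9 in WT hosts (log2 fold change -0.23, SE 0.16, adjusted p = 0.815 in edgeR), and its share of the pair with Cox7a2 per length was 39.0% to 47.1% in KO and 40.7% to 50.2% in WT hosts. The minor forms were scarce. Cox6a2 averaged 1.02 in KO and 0.876 in WT hosts, Cox4i2 0.462 in KO and 0.403 in WT hosts, and Ndufa4l2 0.571 in KO and 0.92 in WT hosts, with adjusted p of 0.951, 0.962 and 0.828. Of the 7 genes that are no subunits, Ndufaf3 had the smallest p, at a log2 fold change of -0.42 (adjusted p = 0.699).

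Subunits kept a similar order of level in both tissues. Over the 81 subunits the WT means per length in fat and tumours had a Spearman rho of 0.90, a description over genes that share their transcript lengths. Atp5b, Cox4i1 and Atp5a1 held the top 3 places in each. Of the 76 subunits tested in both tissues, 62 (81.6%) had log2 fold changes below 0 in both, against 25.4% of the 12529 genes tested in both. Each tissue alone already had most subunits below 0, 93.6% in fat and 82.9% in tumours, so this joint count adds little. With the length classes the tumour count was 48 of 76. No test of the difference between the tissues was made, since their tables were normalised separately.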

How the data were processed

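The members and gene lists were chosen with earlier results of these data known. Per the labels' protocols the library kit was Illumina TruSeq (stranded, mRNA), and the submitters' processing notes name CASAVA, TopHat, DESeq2 and the build mm10 without versions. The counting tool, annotation and strand setting are not given in the sources used here. For tumours the authors deposited a raw read count per gene. Its 5 summary lines, 66.7% to 72.2% of all entries, name no gene and were left out. The line for alignments that were not unique alone held 59.1% to 63.8% of all entries. Its part in the low levels of members with shared sequence was not tested. The fat table was deposited as a signal per gene, that is, reads over a size factor of each library: of 117220 values above 0, 100% were whole multiples of the column's step within 0.001.

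Fat values were tested with limma 3.58.1 (trend, log2(value + 1), genes reaching 10 in at least 3 libraries), and tumour counts with edgeR 4.0.16 (TMM, filterByExpr, quasi-likelihood test) in R 4.3.3. Tests were two-sided, with Benjamini-Hochberg adjustment over all genes tested and a threshold of 0.05. DESeq2 1.42.0 and edgeR were also run on the recovered fat reads. Tumour values are CPM computed from the counts with TMM scaling. Levels per length use 1 transcript per gene, and gene positions are those of RefSeq on GRCm38.p6.

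Genes were named by rule: all of complexes II and III, the largest falls and rises that passed in complexes I, IV and V (the 3 of smallest p where fewer than 3 passed), paralogues, and 1 or 2 members per list. The values of 1 member are not reported here. The WT fat columns are numbered 1, 3 and 4 and the labels' WT replicates 1 to 3, so these columns were assigned to the group only. Same-numbered tumour libraries did not deviate together (r = -0.23, 0.01 and -0.22 for numbers 1 to 3).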

Additional observations from a re-analysis of the deposited data

Results flagged for a closer look

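In 10 of the 85 tested members, KO replicate 1 lay far above the other 3 KO fat libraries, by a gap, as a share of the range of the group, beyond Dixon's 95% critical value. For a single group of independent values, such a gap arises in about 1 in 20 cases. These genes were measured in the same libraries and are not independent, so the 10 cannot be set against that rate. The share of all genes with such a gap was not computed. All 10 were on the high side and in the same library. The widest was Uqcrh, at 4131 in KO replicate 1 and 2741 to 2762 in the others. In complex I the genes were Ndufa12 (571.8), Ndufa6 (1810), Ndufa8 (2755), Ndufb11 (1514.5), Ndufb2 (750.6), Ndufb4 (208.6), Ndufs6 (618.2) and Ndufv2 (3176), each a normalised value in KO replicate 1. In complex V it was Atp5j, at 2548 in KO replicate 1 and 1880 to 1979 in the others. Of the 10, Ndufa12 passed as lower in KO fat.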

How the results depend on the processing

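Over the fits without 1 library, the members that fell in fat numbered 8 to 54 and those that rose 0 to 2, and over all genes 1490 to 2567 fell and 1575 to 2691 rose. With the length classes, chosen after seeing the data, 39 members fell (45.9%, against 20% of all genes tested). On the recovered reads, 27 members fell with DESeq2 (31%, against 16.5% of all genes) and 20 with edgeR (23.5%, against 17.6%). Without the filter on low values 18 fell (20.7%, against 13.8%). After TMM rescaling 20 fell (23.5%, against 16.6%), and 21 fell with a pseudocount of 5 (24.7%, against 17.5%). In the main fit 21 fell (24.7%, against 17.4%), and 2 rose in each of these fits. In tumours, over the fits without 1 library, 0 to 10 genes were called higher and 0 to 11 lower, with 0 members among them. DESeq2 called 47 higher and 12 lower, and without the filter on low counts 21 were called higher and 1 lower. With a replicate block on the tumour numbers, which do not pair the libraries, 0 genes were called. No paired analysis was possible in fat because the WT columns carry other numbers than the labels. The cause of these changes was not tested.

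Single values under the other settings were followed only for the members chosen by the naming rule. Calls of members outside the rule are not in these counts. In fat 455 values kept their direction and side of the threshold, 26 newly passed, 40 no longer passed and 9 changed sign. In tumours 401 kept theirs and 28 changed sign. Ndufaf2 in fat was 0.0082 after TMM rescaling and 0.047 with the length classes. In tumours with the length classes, Sdha was -0.0062, Sdhb 0.067, Uqcrb 0.13, Uqcrh 0.031, Cox7a2 0.054 and Atp5g3 0.10. Over the fits without 1 library in fat, log2 fold changes ran from -0.26 to 0.34 for Cox6b2, -0.15 to 0.31 for Atp5g1, -0.083 to 0.076 for Ndufaf2 and -0.22 to 0.011 for Cox7b. In tumours the median of complex V ran from -0.21 to 0.0365. Single tumour genes ran from -0.15 to 0.12 for Uqcrb, -0.15 to 1.03 for Cox4i2, -0.10 to 0.062 for Atp5g3, -0.26 to 0.22 for Ndufaf2, -0.029 to 0.28 for Ndufaf4, -0.036 to 0.037 for Sdha, -0.41 to 0.53 for Cox6a2, -0.16 to 0.27 for Atp5g1, -0.078 to 0.053 for Sdhb, -0.10 to 0.0021 for Sdhc, -0.16 to 0.0016 for Sdhd, -0.25 to 0.012 for Uqcrh and -0.22 to 0.0061 for Atp5s. All of these are differences that did not pass. Low genes such as Cox4i2, Cox6a2 and Atp5g2 rest on few reads, and 87.4% of the windows of Atp5g2 also lie in a pseudogene.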
